A study of Mus musculus with 5 samples.

Results

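Enzymes that make or break down cyclic nucleotides were followed across single-nucleus RNA libraries of the mouse paraventricular hypothalamus (PVH), the nucleus that holds many of the brain's oxytocin neurons. They were taken by symbol, as 10 of the 31053 genes counted: the adenylyl cyclases Adcy1, Adcy2, Adcy5 and Adcy8, and the phosphodiesterases Pde1c, Pde3a, Pde4b, Pde4d, Pde10a and Pde11a. They were chosen by measured values of these libraries, namely the neuron levels and the VPA and CNO ratios in neurons, so those are given as a description, with no test.

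The series addresses oxytocin neurons in a model of social impairment. The libraries came from male mice on a C57BL6 background, and each pooled nuclei of 2 to 4 mice. In the first experiment the mice carried OT-Cre, a recombinase expressed from oxytocin cells, and Rosa26tm9(CAG-tdTomato)Hze, a red reporter switched on by Cre. Their mothers received either saline (10 mL/kg) or sodium valproate (VPA, 500 mg/kg), a drug used in rodents to model features of autism, on gestation day 12.5, and tissue was taken at 5 weeks (1 library each). In the second experiment the mice carried OT-Cre with Rosa26dreaddm3, a Cre-dependent hM3 designer receptor, and all had been exposed to VPA before birth. They received saline (1 library, called the hM3 control) or the receptor's ligand clozapine N-oxide (CNO, 2 libraries) on postnatal day 2, and were used at 5 to 7 weeks. All of the second experiment's mice also had an AAV injected into the PVH and supraoptic regions, whose content the labels do not give. The experiments therefore differ in genotype, virus and age, and each contrast below uses its own libraries. Reporter fluorescence guided the dissection in the first experiment, and the sorting gate favoured larger nuclei. Nothing in the labels says whether the CNO libraries came from separate litters.

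Adenylyl cyclases convert ATP to cyclic AMP when G protein coupled receptors, calcium or protein kinases act on them, and the isoforms differ in which of these inputs they answer to. Phosphodiesterases hydrolyse cyclic AMP, cyclic GMP or both, and so set how far and how long the signal spreads. The messenger acts through protein kinase A, exchange factors and cyclic nucleotide gated channels, and in hypothalamic neurons it is known for modulating peptide release and firing.

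Of the 14 RefSeq promoter windows matched to 8 of the 10 genes (250 bases upstream of a start, GRCm38.p6), 1 window of Pde4b held the short cyclic AMP response motif TGACG or its reverse complement CGTCA on either strand. The same motif was in 17.8% of all 32851 windows, and the full palindrome TGACGTCA, which contains it, was in 1.55% of them and in 0 of the 14. That Pde4b window is shown to the end of its motif, which is in capitals, beside a window each of Pde1c and Pde10a. Those genes were past the limit of a call on the lower side in 7 of 14 (CNO) and 10 of 40 (VPA) neuron sub-clusters. Under VPA Pde11a was past it lower in 9 of 19 (higher in 1) and Pde3a in 7 of 20 (higher in 3). Each printed window lies inside the span of its gene. The Pde1c and Pde10a windows are the farthest upstream that overlap no exon of their gene. Windows are given 5′ to 3′ on the gene's strand. The counts are per gene and do not tell which start was used.
Pde4b, chr4:102421305-102421525, plus strand: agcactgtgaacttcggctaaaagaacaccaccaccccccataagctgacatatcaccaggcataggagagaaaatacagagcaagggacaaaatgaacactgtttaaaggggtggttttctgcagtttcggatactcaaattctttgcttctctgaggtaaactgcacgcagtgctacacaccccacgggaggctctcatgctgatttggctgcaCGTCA
Pde1c, chr6:56369635-56369884, minus strand: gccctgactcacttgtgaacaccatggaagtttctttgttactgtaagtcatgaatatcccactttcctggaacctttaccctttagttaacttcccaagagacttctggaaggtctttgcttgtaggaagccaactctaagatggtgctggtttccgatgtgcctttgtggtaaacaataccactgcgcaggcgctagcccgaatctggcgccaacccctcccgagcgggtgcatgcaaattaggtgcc
Pde10a, chr17:8849735-8849984, plus strand: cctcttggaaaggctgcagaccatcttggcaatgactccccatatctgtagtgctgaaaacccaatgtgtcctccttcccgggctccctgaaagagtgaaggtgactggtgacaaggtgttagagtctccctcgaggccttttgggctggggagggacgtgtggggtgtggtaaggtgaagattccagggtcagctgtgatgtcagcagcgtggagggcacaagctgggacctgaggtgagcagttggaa
No match in a window says only that these letters are not in it.

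The deposited matrices held 4440 to 10904 nuclei per library with 52506958 to 76243280 unique molecular identifiers (UMIs). After filters, 4135 to 9830 nuclei remained, with medians from 4218 UMIs in CNO library 2 and 5250 in the VPA library to 12134 in CNO library 1. Barcodes found in 2 libraries numbered 104 of 32188. Unsupervised clusters were named from fixed markers, and the enzymes, other pathway genes, Oxt and Avp did not enter the clustering. Neurons with a clear transmitter identity (neuron-like) made up 68.8, 73.5, 49.2, 48.0 and 25.6% of nuclei in the saline, VPA, hM3 control, CNO 1 and CNO 2 libraries, an order kept in every list of 5 values below. They divided into OT-like nuclei (146, 199, 95, 26 and 77), Sim1-rich glutamatergic, other Slc17a6-rich glutamatergic, Slc32a1-rich (GABAergic) and thalamus-type nuclei. The thalamus-type share was 8.68, 2.67, 4.11, 11.3 and 20.3% of neuron-like nuclei, which bears on several ratios. Sub-clusters with both transmitter genes (1.88 to 14.2% of nuclei), with neither, with markers of another class or nearly all from 1 library were set aside, in all 3.52 to 27.8% of nuclei. OT-like nuclei held Oxt, Sim1, Otp and Pou3f2, and their summed level there was 926 to 1394 CPM, against 71.2 to 210 CPM over all neuron-like nuclei.

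Levels are in CPM, the usual scaling of a gene's UMI count to the summed UMIs of all genes, over the nuclei of a class in a library. They are compared between classes within a gene, since longer genes give more UMIs in nuclei. Intervals in brackets are exact 95% intervals and cover counting error only. Gene positions are spans on GRCm38.

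Adcy8 (chr15:64697084-64922296, minus strand), a cyclase stimulated by calcium and calmodulin, was highest in astrocyte-like nuclei. It stood there at 655.5, 616.6, 467.7, 423.9 and 402.7 CPM, against 477.7, 397.7, 430.3, 506.0 and 351.3 CPM in thalamus-type nuclei and 188.6, 182.2, 241.3, 168.7 and 207 CPM in OT-like nuclei. The astrocyte-like and thalamus-type ranges overlapped, and every thalamus-type library lay above every OT-like library. In oligodendrocyte-like nuclei Adcy8 reached 6.83 to 17.7 CPM.

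Adcy2 (chr13:68620043-68999541, minus strand), a cyclase that Gs and G beta-gamma subunits stimulate together, was highest in OT-like nuclei, at 635.5, 615.4, 629.9, 478.9 and 494.3 CPM. Astrocyte-like nuclei followed (mean 495 ± 64.9 CPM, SD, n = 5 libraries), and the ranges overlapped. Astrocyte-like nuclei in turn lay above Slc32a1-rich nuclei in every library (lowest 394.3 against highest 287.6 CPM). Thalamus-type nuclei were the lowest neurons for Adcy2, at 61.1 ± 17.3 CPM.

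Adcy1 (chr11:7063489-7178506, plus strand), the other calmodulin-stimulated cyclase, had an order that began with thalamus-type nuclei (72.1 ± 17.7 CPM) and Slc32a1-rich nuclei (44.0 ± 7.47 CPM), whose ranges overlapped. Every neuron type lay above the committed precursors of oligodendrocytes (lowest Sim1-rich library 22.6, highest committed precursor library 18.7 CPM). The precursor values came from 35, 70 and 23 nuclei in the saline, VPA and hM3 control libraries, and the gap was not set against counting error. Adcy5 (chr16:35154877-35305738, plus strand), a cyclase inhibited by calcium and best known from the striatum, had a flat profile: oligodendrocyte-like nuclei (132, 108, 96.3, 111 and 82.7 CPM) and all neuron types overlapped. Astrocyte-like nuclei held 10.2 to 25.2 CPM of Adcy5, below every library of committed precursors.

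Pde4b (chr4:102087543-102607259, plus strand), a phosphodiesterase specific for cyclic AMP, was highest in oligodendrocyte-like nuclei, which held 16100, 15199, 13962, 11507 and 9638 CPM. OT-like nuclei came next at 4324, 3722, 3820, 2913 and 3396 CPM, then committed precursors (2559 ± 184, n = 3 libraries) and oligodendrocyte precursors (OPC-like, 2180 ± 320). The oligodendrocyte-like and OT-like ranges did not overlap, nor did the OT-like range and that of the committed precursors. After each nucleus was thinned to 2000 UMIs, 100% of oligodendrocyte-like nuclei carried a Pde4b UMI in all 5 libraries, from 189 to 797 nuclei each. The share in astrocyte-like nuclei was 65.3 to 71.4%.

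Pde4d (chr13:108449948-109953461, plus strand), the other member of the cyclic AMP specific family, was ordered differently. Thalamus-type nuclei (4151, 4476, 3611, 3305 and 3080 CPM) and OT-like nuclei (3668, 3593, 3137, 3025 and 3324 CPM) overlapped at the top. Sim1-rich nuclei followed at 2144 ± 115 CPM, below every OT-like library. Oligodendrocyte-like nuclei, the highest for Pde4b, were the lowest for Pde4d at 190 to 267 CPM.

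Pde10a (chr17:8525372-8986648, plus strand), a phosphodiesterase for both cyclic nucleotides known from striatal projection neurons, was highest in thalamus-type nuclei at 2074, 1538, 1399, 1874 and 1294 CPM. Sim1-rich nuclei (1167 ± 171 CPM) overlapped with them. Astrocyte-like nuclei held 58.5 to 112 CPM and oligodendrocyte-like nuclei 44.1 to 67.7 CPM of Pde10a. That was 5.66 to 12.0% and 3.47 to 7.55% of the neuron-like level. Neuronal genes read as a reference for free RNA gave different shares in the astrocyte-like nuclei: 8.78 to 14.0% of the neuron-like level for Snap25, 10.1 to 36.3% for Gad2, 3.30 to 6.02% for Syt1 and 1.86 to 6.20% for Rbfox3. In oligodendrocyte-like nuclei they were 7.05 to 15.7%, 8.73 to 19.1%, 2.73 to 7.79% and 1.03 to 8.31%. Pde10a lay within the span of these genes in both classes.

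Pde1c (chr6:56069804-56569103, minus strand), a calcium and calmodulin stimulated phosphodiesterase, was high in OT-like nuclei (213.6, 262.2, 297.4, 331.0 and 223.5 CPM), oligodendrocyte-like nuclei (302, 203, 234, 250 and 217 CPM) and OPC-like nuclei (200 ± 44.1 CPM), with overlapping ranges. It was lowest in thalamus-type nuclei among the classes by mean, at 8.27, 5.61, 23.5, 8.36 and 8.62 CPM. Pde3a (chr6:141249269-141507448, plus strand), the cyclic GMP inhibited phosphodiesterase known from vessels and oocytes, was highest by mean in endothelial-like nuclei (86.2 ± 68.0 CPM, n = 4 libraries) and OPC-like nuclei (80.2 ± 21.7 CPM). No neighbouring classes in its order separated. Pde11a (chr2:75989141-76338774, minus strand), which hydrolyses both nucleotides, was highest in Slc32a1-rich nuclei at 29.1, 18.2, 53.2, 39.3 and 17.9 CPM. It reached 0 to 1.86 CPM in oligodendrocyte-like and 1.57 to 3.43 CPM in astrocyte-like nuclei.

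**Figure D1:**
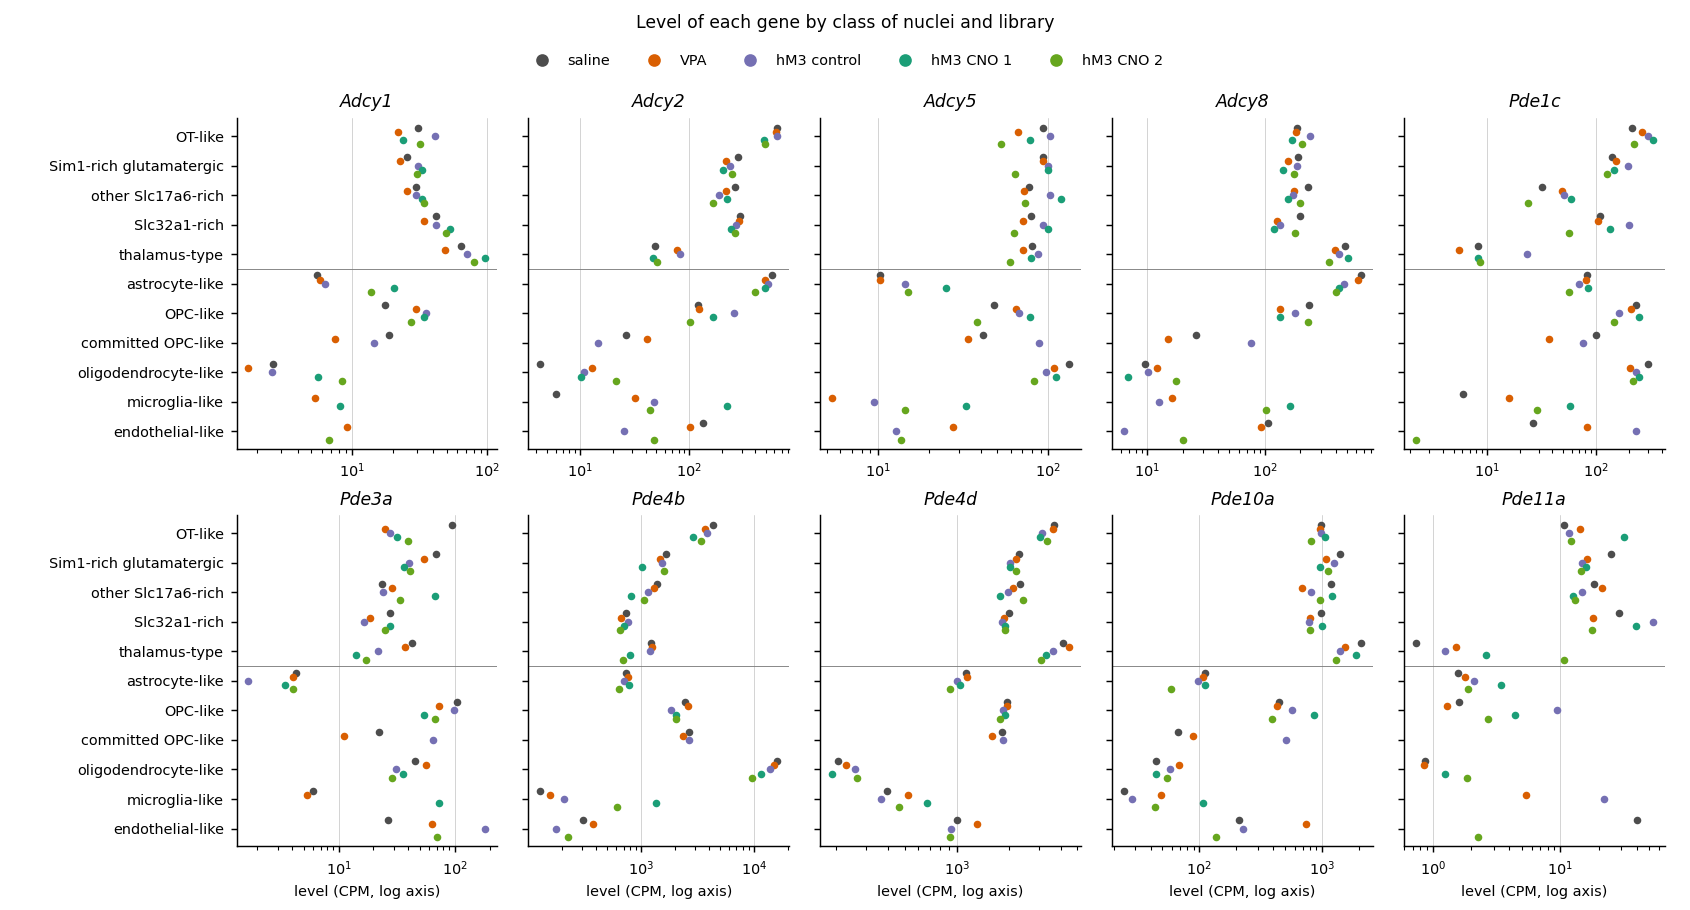
Level of each gene (CPM, log axis) in each class, 1 point per library, with neuron types above and glia and vessel cells below the dividing line; classes with under 20 nuclei in a library or with 0 UMIs are not drawn. Pde4b in oligodendrocyte-like nuclei lies at 9638 to 16100 CPM, and Adcy8 and Adcy2 are the cyclases with high astrocyte-like values.

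Low glial values were read against free RNA. After thinning, Adcy2 UMIs were found in 1.77 to 4.23% and Adcy8 UMIs in 1.00 to 3.18% of oligodendrocyte-like nuclei, and the GABAergic neuron gene Gad2 in 2.21 to 4.15%. The shares of both cyclases overlapped that of Gad2, and whether their UMIs there were free RNA was not tested. Before thinning the shares were 1.65 to 3.82% for Adcy2 and 3.63 to 6.95% for Gad2, at median depths of 1721 to 3739 UMIs per nucleus against 6144 to 16210 in neuron-like nuclei. Adcy5 in oligodendrocyte-like nuclei (15.3 to 26.5% after thinning) and Pde1c there (25.9 to 36.8%) were above the Gad2 share. In astrocyte-like nuclei the Adcy8 share was 49.8 to 63.6%, against 2.44 to 8.52% for Gad2.

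Inside the neurons, 41 sub-clusters had at least 20 nuclei in at least 3 libraries. Pde4d was the most even over them, with its highest sub-cluster (3951 CPM) 1.93 times the median of 2052 CPM. Pde1c and Pde3a were the most uneven, with the highest sub-cluster 14.8 and 14.7 times the median. These are descriptions of clusters of the same nuclei.

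Pde1c peaked in a GABAergic sub-cluster led by Dock5 and Ano3 that also had Esr1 among its leading genes (sub-cluster 44), at 387, 913, 845 and 379 CPM in the 4 libraries with enough nuclei. A Sim1-rich sub-cluster with Sim2 and Bdnf (sub-cluster 8) held 693, 590, 601, 500 and 476 CPM of Pde1c, above sub-cluster 44 in the saline and CNO 1 libraries. The largest thalamus-type sub-cluster held 8.27, 5.61, 25.8, 4.68 and 1.19 CPM. Pde3a peaked in a Sim1-rich sub-cluster with Calcr (sub-cluster 29; 328, 335, 246 and 155 CPM) and was itself among the genes leading it. Its lowest sub-cluster, led by Agtr1a, averaged 1.15 CPM.

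That Agtr1a sub-cluster (sub-cluster 18) was high for other enzymes. Adcy5 had its highest level there, at 245, 242, 259 and 133 CPM. Pde10a stood there at 2733, 2829, 2141 and 2322 CPM. By mean that was second to a Sim1-rich sub-cluster with Rxfp2 and Sst (3708, 2294 and 2002 CPM in saline, VPA and hM3 control). The Rxfp2 and Sst sub-cluster was the higher one in saline but not in VPA or hM3 control. Pde11a also ranked second in the Rxfp2 and Sst sub-cluster, at 142, 49.5 and 55.2 CPM. The highest sub-cluster for Pde11a by mean was GABAergic with Pappa, Esr1 and Nts (61.2, 70.0, 146.6 and 90.1 CPM), though in saline it was below both of these.

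The sub-cluster led by Avp, the vasopressin gene (sub-cluster 36), was the highest for a cyclase and a phosphodiesterase. It held 7705, 7998, 6316 and 5890 CPM of Pde4b, against a median of 838 CPM over sub-clusters. Its Adcy8 level was 965, 870, 871 and 620 CPM, against a median of 180 CPM. A GABAergic sub-cluster with the dopamine synthesis genes Th and Ddc held 516, 426, 535 and 356 CPM of Adcy8. Adcy2, by contrast, was highest in OT-like sub-cluster 31 and then in a GABAergic sub-cluster with Lhx1 and Eya1 (898, 745, 833 and 707 CPM).

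**Figure D2:**
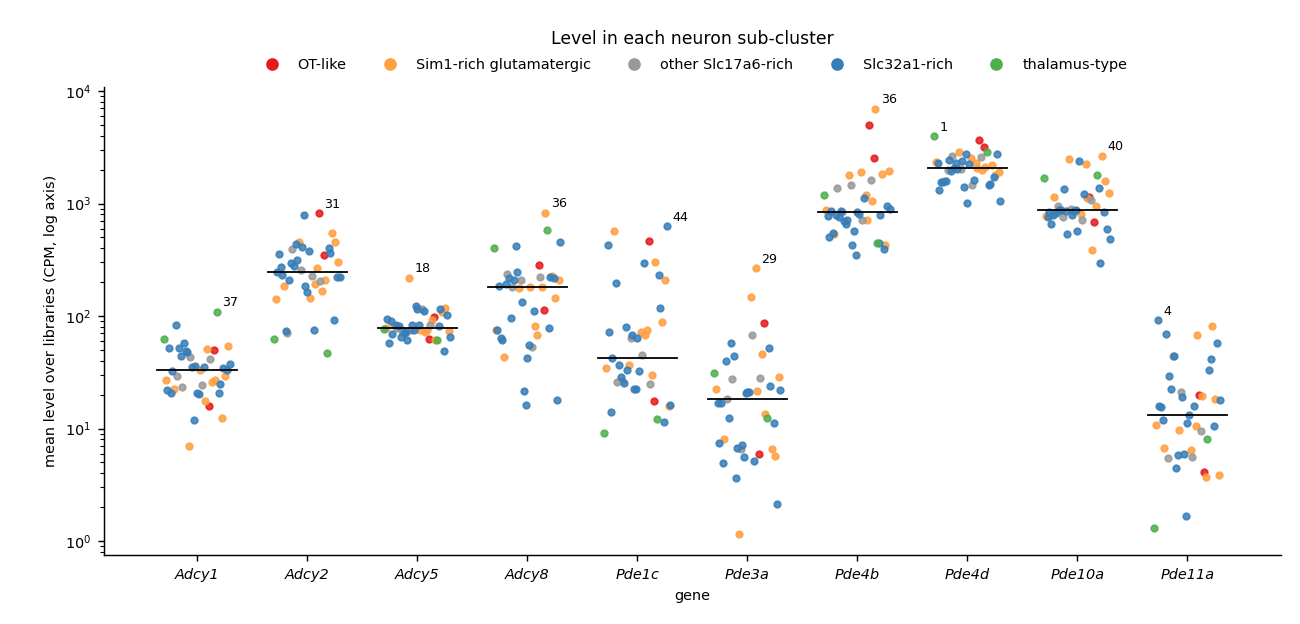
Mean level (CPM, log axis) of each gene in the 41 neuron sub-clusters, 1 point per sub-cluster, coloured by neuron type, with the median as a black line and the number of the highest sub-cluster printed. Pde4d points lie close to their median, and Pde1c and Pde3a spread most, reaching 631 and 266 CPM.

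OT-like nuclei fell into sub-cluster 31 (60, 107, 57, 16 and 40 nuclei), led by Oxt with Nos1 and Adamts12, and sub-cluster 35 (86, 92, 38, 10 and 37 nuclei), led by Esr2, Abcc9 and Oxt with Reln and Foxp2. Their enzyme levels differed in opposite ways for different genes. Pde1c was at 549, 470, 452, 520 and 375 CPM in sub-cluster 31 and at 9.20, 17.3, 40.7, 12.8 and 2.71 CPM in sub-cluster 35. Pde3a was the reverse, at 3.77, 3.92, 2.88, 2.54 and 12.99 CPM in sub-cluster 31 (1 to 7 UMIs a library) and 149.5, 49.6, 69.4, 81.2 and 78.5 CPM in sub-cluster 35. Neither gene's ranges overlapped between the sub-clusters.

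Other enzymes followed one or the other side. Adcy2 was higher in sub-cluster 31 (993, 851, 790, 560 and 638 against 418, 338, 364, 342 and 284 CPM), with no overlap. Pde4b was higher there too (6618, 4768, 4722, 3362 and 4035 against 2925, 2489, 2321, 2157 and 2465 CPM), as was Pde11a (16.7 to 45.6 against 2.39 to 8.54 CPM), both without overlap. Pde11a in sub-cluster 35 rested on 2 to 5 UMIs a library, and its counting intervals overlapped those of sub-cluster 31 in both CNO libraries. Adcy1 was higher in sub-cluster 35 (35.7 to 80.2 against 9.80 to 24.1 CPM), with no overlap. Adcy8, Adcy5, Pde10a and Pde4d overlapped between them. Adcy8 and Pde10a overlapped only through CNO library 1, with 16 and 10 nuclei, where sub-cluster 35 was at 171 CPM of Adcy8 and 1171 CPM of Pde10a.

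Exposure to VPA before birth was compared with saline in 1 library each, so there is no replicate check and no p-value, and a gene is called past 1.5-fold. In neuron-like nuclei 9 of the 10 enzymes were lower in the VPA library and 1 was called, against 34.4% lower and 3.56% called of 11061 genes tested. The median log2 ratio of the 10 was −0.32, against 0.07 over all tested genes. Of other genes at least as long as the shortest enzyme gene, 59.5% were lower. The VPA ratios in neurons were among the values that chose the genes, so nothing is read from these shares. The same holds for the neuron types and sub-clusters below, which are parts of the same libraries and not replicates. A sum over a class cannot tell fewer nuclei of a high-expressing type from less RNA per nucleus. With each sub-cluster weighted equally, 0 of the 10 were called.

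Adcy8 was the enzyme called, at 236.6 CPM in saline and 154.0 CPM in VPA (log2 −0.62 [−0.66, −0.58]). The thalamus-type nuclei held 26.0% of its UMIs in saline and 10.3% in VPA. Outside them Adcy8 stood at 201 and 144 CPM, and inside them at 478 and 398 CPM. With sub-clusters weighted equally its ratio was −0.23. Within sub-clusters Adcy8 was lower in 32 of 38 compared, 5 of them past 1.5-fold, and higher in 6. Of all pairs of a gene and a sub-cluster, 6.44% were past 1.5-fold lower and 9.19% higher.

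Pde10a was lower by 0.51 on the log2 scale, at 1278 and 897 CPM (interval −0.53 to −0.49), short of a call. Outside thalamus-type nuclei it stood at 1160 and 870 CPM. It was lower in 31 of 40 sub-clusters, and 10 of those were past 1.5-fold, with 0 past it on the higher side. The sub-clusters with the lowest ratios included number 24 (716 to 322 CPM), number 39 (376.5 to 172 CPM) and number 11 (1528 to 713 CPM). In the other Slc17a6-rich class Pde10a was past the limit, at 1172 and 686 CPM.

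Pde3a was at 45.4 and 30.7 CPM (−0.56 [−0.66, −0.47]) and Pde11a at 21.7 and 17.2 CPM (−0.34 [−0.47, −0.21]). For both, sub-clusters lay on either side, with more of them lower. Pde3a was past 1.5-fold lower in 7 and higher in 3 of 20, and Pde11a lower in 9 and higher in 1 of 19.

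Adcy1 (−0.33 [−0.43, −0.24]), Pde4b (−0.30 [−0.32, −0.28]) and Pde4d (−0.21 [−0.22, −0.20]) were lower by less, and neither Pde4 gene was past 1.5-fold in any of 40 sub-clusters. Over the alternatives their ratios ran from −0.40 to −0.11, from −0.37 to −0.14 and from −0.27 to −0.04. Adcy5 (−0.12) and Adcy2 (−0.04) were nearly level in the sum over neuron-like nuclei. Within sub-clusters each was lower in 27 of 40 and higher in 13. Adcy2 was past 1.5-fold lower in 6 and higher in 3, and Adcy5 lower in 2 and higher in 0. Pde1c was the one enzyme higher in VPA, at 100.1 and 112.8 CPM (0.17 [0.12, 0.23]). Inside sub-clusters it was past 1.5-fold higher in 11 of 38 and lower in 4, and the sub-cluster of its highest mean level went from 387 CPM (21 nuclei) to 913 CPM (86 nuclei).

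Gene length moved with the direction of both contrasts in neuron-like nuclei. Under VPA the 1867 other tested genes whose span was at least that of the shortest enzyme gene (115 kb) were lower in 59.5% of cases with a median of −0.04. The 9176 shorter genes were lower in 29.3% with a median of 0.09. In the CNO contrast 55.5 and 65.5% of the 1851 long genes were lower in CNO libraries 1 and 2, against 32.1 and 46.2% of 9447 shorter ones. The part of gene length in the enzymes' ratios was not tested in either contrast. The median depth per nucleus also differed, at 10832 UMIs in saline and 5250 in VPA.

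In OT-like nuclei Pde3a was called, at 94.3 CPM in saline and 24.9 CPM in VPA (−1.92 [−2.40, −1.47]), against 12.4% of 10446 genes. With both sub-clusters weighted equally the ratio was −1.52. Sub-cluster 35, where Pde3a is high, held 86 of 146 OT-like nuclei in saline and 92 of 199 in VPA. Within it Pde3a was at 149.5 CPM [131.9, 168.9] in saline and 49.6 CPM [35.9, 66.8] in VPA, on 260 and 43 UMIs. The second experiment's libraries, all exposed to VPA, lay between, at 69.4, 81.2 and 78.5 CPM with intervals below that of saline. They differ from the saline library in genotype, virus and age as well. The other 9 enzymes were not called. Adcy5 stood at 92.9 and 66.2 CPM (−0.49 [−0.81, −0.18]) and Pde1c at 213.6 and 262.2 CPM (0.30 [0.12, 0.47]). With sub-clusters 31 and 35 weighted equally, the Pde1c ratio in OT-like nuclei turned to −0.19.

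**Figure D3:**
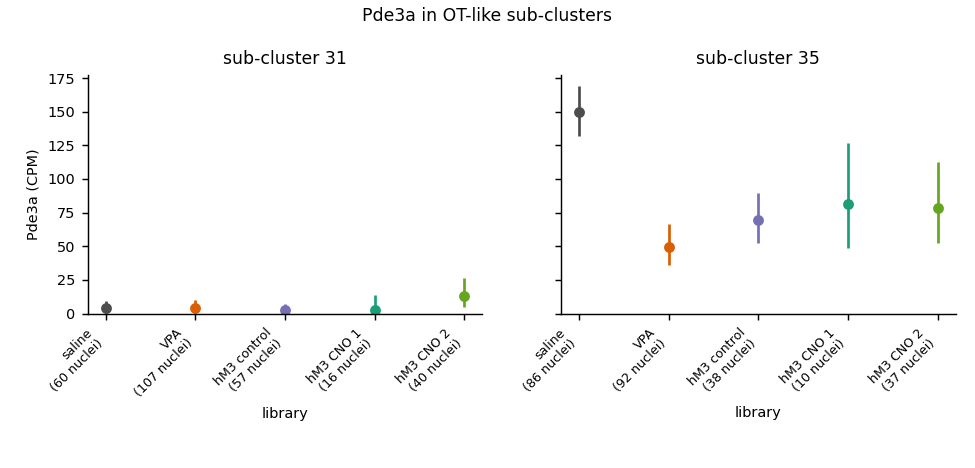
Pde3a level (CPM) with exact 95% Poisson intervals in the OT-like sub-clusters 31 and 35 of each library. In sub-cluster 35 the saline library lies at 149.5 CPM and the other libraries at 49.6 to 81.2 CPM, and sub-cluster 31 stays at or under 12.99 CPM.

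By neuron type the remaining VPA calls were few. In Slc32a1-rich nuclei Adcy8 (199 to 126 CPM) and Pde11a (29.1 to 18.2 CPM) were called, against 3.68% of genes. In Sim1-rich nuclei Pde11a was called (24.8 to 16.3 CPM), against 4.19%. In thalamus-type nuclei Adcy2 was called on the higher side (48.6 to 77.0 CPM), against 13.6%. In the other Slc17a6-rich nuclei Pde1c was called higher (32.2 to 48.5 CPM) beside the lower Pde10a, against 7.4%.

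In astrocyte-like nuclei 0 of 7 tested enzymes were called under VPA, against 14.7% of genes. In oligodendrocyte-like nuclei Pde10a was called higher (44.4 to 67.7 CPM, 51 and 79 UMIs), against 17.7%. That is 3.47 and 7.55% of the neuron-like level, within the span of the free RNA genes, and the summed neuron markers in these nuclei were 549.7 and 926.8 CPM. Pde1c was just short of a call on the lower side (302 and 203 CPM, −0.57). In OPC-like nuclei Adcy8 was called lower (235 to 133 CPM) and Adcy1 higher (11 and 23 UMIs), against 15.9%. The committed precursors had Pde1c lower (27 and 10 UMIs), against 24.5%. Their summed neuron markers were 756 CPM in saline and 1853 CPM in VPA, and their oligodendrocyte markers 6961 and 5302 CPM. Endothelial-like nuclei (22 and 20) had Pde10a higher (16 and 81 UMIs), against 38.2%. Their neuron markers summed to 4818 and 7072 CPM, and Snap25 was at 20.2 and 42.7% of its neuron-like level. The part of these marker differences in the Pde10a and Pde1c values was not tested. Of 2 enzymes tested in microglia-like nuclei 0 were called, against 19% of genes.

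**Figure D4:**
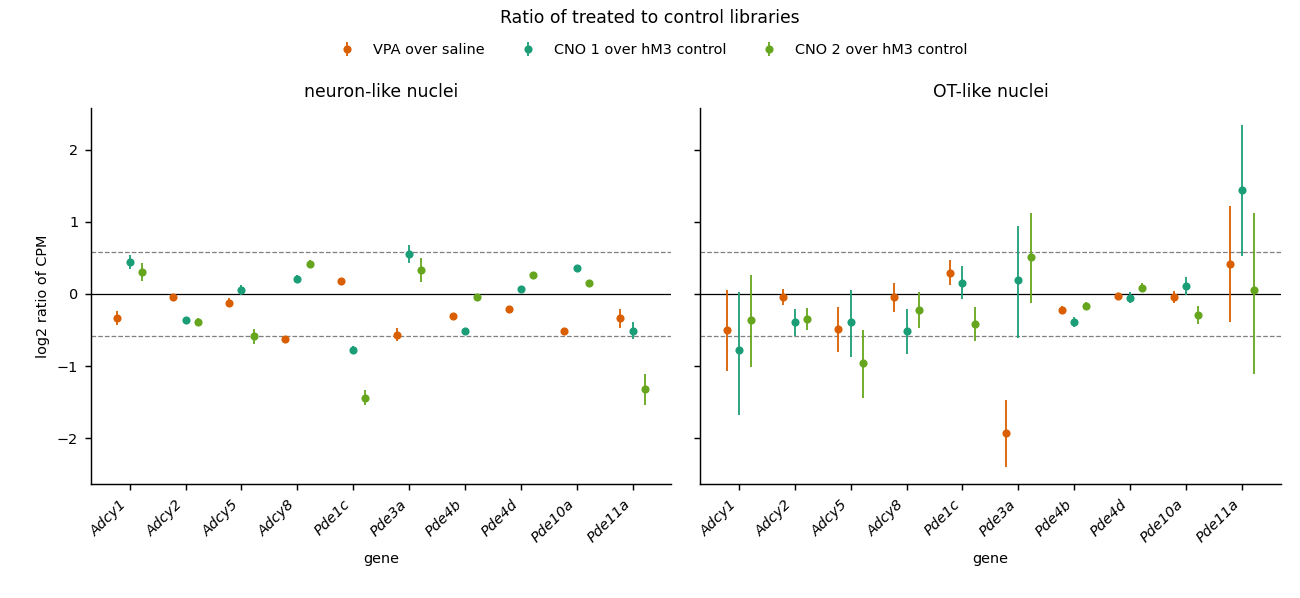
Log2 ratio of CPM, treated over control, for each enzyme in neuron-like and OT-like nuclei, with exact 95% intervals for counting error, for the VPA library and for each CNO library; dashed lines mark 1.5-fold. Pde3a in OT-like nuclei under VPA (−1.92) and Pde1c in neuron-like nuclei of both CNO libraries (−0.77 and −1.44) lie past the line.

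CNO given to VPA-exposed hM3 mice was compared with saline in 2 libraries against 1, and a gene is called where both CNO libraries pass 1.5-fold on the same side. In neuron-like nuclei 1 enzyme was called. Pde1c stood at 173.4 CPM in the hM3 control and at 101.4 and 64.0 CPM in the CNO libraries (−0.77 [−0.83, −0.72] and −1.44 [−1.54, −1.34]). Calls were 2.86% of 11318 genes in either direction and 0.0795% on the lower side, which is 9 genes. This contrast was among the values that chose the genes, so nothing is read from that share.

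The neuron types behind Pde1c differed between these libraries. The 4 sub-clusters with its highest levels (44, 8, 31 and 4) held 19.7% of neuron-like nuclei and 62.9% of Pde1c UMIs in the hM3 control. They held 13.7 and 7.19% of nuclei in the CNO libraries, and 6.84 and 8.16% in the saline and VPA libraries. Inside them Pde1c was at 523 CPM in the control and 378 and 379 CPM under CNO (−0.47 and −0.46). Outside them it was at 81.3 CPM and 59.5 and 38.1 CPM (−0.45 and −1.10), and the call was lost. With equal weight per sub-cluster the ratio was −0.49, also short of the limit.

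Single sub-clusters kept the direction in part. Of 14 with enough nuclei in all 3 libraries, Pde1c was lower in both CNO libraries in 9, past 1.5-fold in 7, and higher in both in 1. Of all pairs of a gene and a sub-cluster 2% were past the limit on the lower side and 5.97% on the higher side. The genes were chosen with this contrast in neurons in view. The sub-clusters are parts of the same 3 libraries and not replicates, so nothing is read from these shares. The 7 had control levels of 25.8 to 114 CPM on 56 to 179 UMIs. In the sub-cluster of this kind with the highest control level (sub-cluster 5) Pde1c went from 114 to 63.5 and 24.8 CPM. In the Sim2 and Bdnf sub-cluster, which held far more Pde1c, it went from 601 to 500 and 476 CPM (−0.26 and −0.34). With at least 50 nuclei required in each library, 1 sub-cluster could be compared. It was sub-cluster 1, of thalamus type, which has the lowest mean Pde1c of the sub-clusters ranked, and its values were 25.8, 4.68 and 1.19 CPM on 56, 17 and 2 UMIs.

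**Figure D5:**
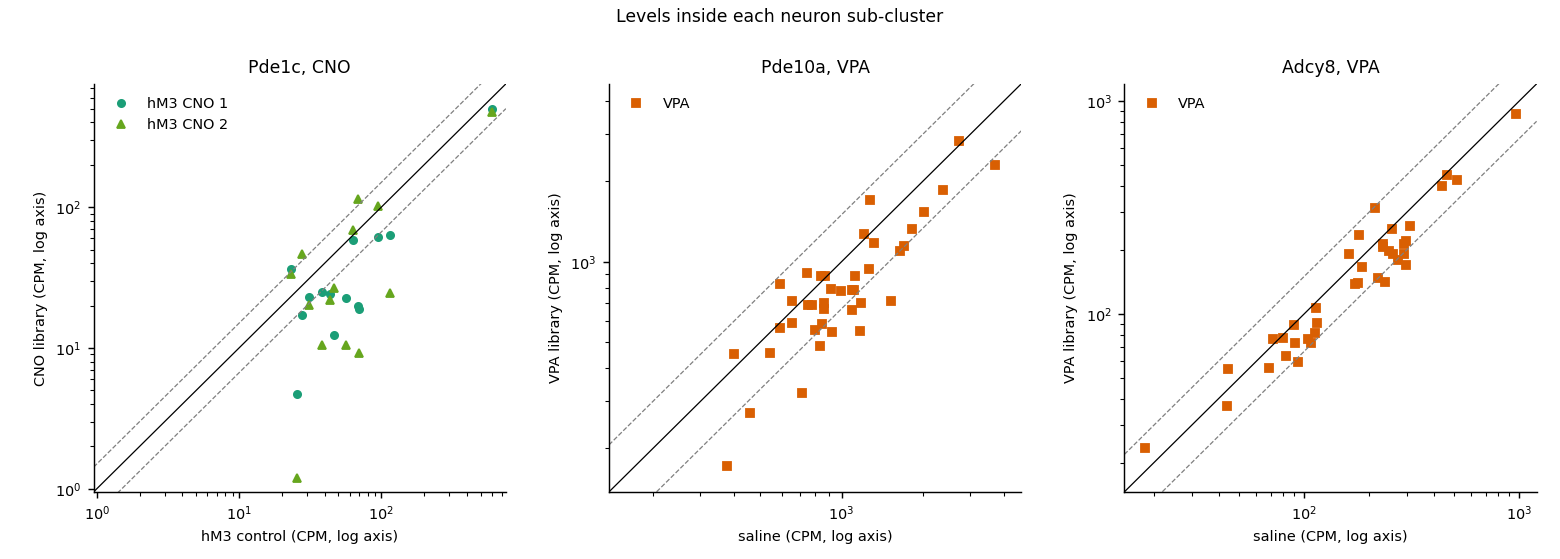
Level (CPM, log axes) in the treated against the control library within each neuron sub-cluster, for Pde1c in the CNO contrast and for Pde10a and Adcy8 in the VPA contrast, with the line of equal levels and dashed lines at 1.5-fold. Points past the lower dashed line number 10 of 40 for Pde10a and 5 of 38 for Adcy8, and Pde1c is past it in both CNO libraries in 7 of 14.

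The other enzymes moved less between hM3 control and CNO in neuron-like nuclei. Adcy2 was lower in both CNO libraries (260 against 202 and 198.5 CPM). Its log2 ratio of mean CPM was −0.37 and ran from −0.41 to −0.06 over the alternatives. Thalamus-type nuclei, the lowest neurons for Adcy2, were 4.11% of neuron-like nuclei in the control and 11.3 and 20.3% under CNO. Their part in the Adcy2 ratio was not tested. Adcy1 was higher in both CNO libraries (39.4 against 53.7 and 48.6 CPM). Outside thalamus-type nuclei Adcy1 stood at 37.5 against 44.4 and 37.8 CPM, and with equal weight per sub-cluster its ratio turned to −0.02. Adcy8 was higher in both (172.9 against 199.9 and 230.4 CPM), and outside thalamus-type nuclei it was at 157 against 134 and 187.5 CPM, with the CNO libraries on either side of the control.

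Among the phosphodiesterases Pde10a was at 930 against 1188 and 1035 CPM and Pde4d at 2063 against 2168 and 2473 CPM. Outside thalamus-type nuclei Pde10a stood at 901 against 1040 and 943 CPM. Over the alternatives the log2 ratio ran from 0.10 to 0.35 for Pde10a and from 0.03 to 0.26 for Pde4d. Pde3a was also higher in both CNO libraries (23.4 against 34.4 and 29.4 CPM), though with equal weight its ratio turned to −0.11. Pde4b (1165 against 816 and 1131 CPM) and Pde11a (34.8 against 24.4 and 13.9 CPM) were lower in both by unequal amounts. The Pde11a ratio was −0.86 and, with equal weight per sub-cluster, −0.26; sub-cluster 4, led by Pappa and Pde11a, held 259 nuclei in the control and 176 and 14 in the CNO libraries. Adcy5 was the enzyme with mixed direction, at 95.3 against 99.1 and 63.5 CPM. In all, 5 enzymes were higher in both CNO libraries and 4 lower in both, against 37.6 and 22.8% of genes. Within the 6 to 14 sub-clusters compared for each, none of the 9 enzymes other than Pde1c was past 1.5-fold in both CNO libraries in more than 1.

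In OT-like nuclei 0 of 10 enzymes were called in the CNO contrast, against 6.34% of genes. Adcy2 was lower in both CNO libraries (629.9 against 478.9 and 494.3 CPM; −0.40 [−0.58, −0.21] and −0.35 [−0.51, −0.20]). Adcy5 was at 102.4 against 78.0 and 52.8 CPM, and Pde4b at 3820 against 2913 and 3396 CPM. CNO library 1 held only 26 OT-like nuclei. Pde3a, low in VPA, was at 27.9 against 31.8 and 39.6 CPM, with intervals of both ratios including 0.

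By neuron type, thalamus-type nuclei had Adcy2 (82.6 against 46.1 and 51.2 CPM) and Pde1c (23.5 against 8.36 and 8.62 CPM) called lower, against 9.28% of genes. Of these nuclei, sub-cluster 37 held 9 of 100 in the control and 81 of 225 and 134 of 282 in the CNO libraries. In sub-cluster 1, which held the rest, Adcy2 was at 89.7 against 43.2 and 52.3 CPM and Pde1c at 25.8 against 4.68 and 1.19 CPM. Slc32a1-rich nuclei had Pde3a called higher (16.5 against 27.7 and 25.1 CPM), against 2.55%. Pde1c in that class was at 199 against 133 and 57.2 CPM, just short of the limit in CNO library 1. Sim1-rich and other Slc17a6-rich nuclei had 0 of 10 called, against 3.96 and 4.17%.

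In glia, whose values did not choose the genes, edgeR's quasi-likelihood test with 1 residual degree of freedom was fitted over all genes, with the lone control assumed to vary like the CNO libraries. Astrocyte-like nuclei had 0 of 11538 genes past an adjusted p of 0.05 (420 at an unadjusted p under 0.05, and 0 with DESeq2). Adcy1 was the enzyme past 1.5-fold in both CNO libraries there, at 6.28 against 20.6 and 13.9 CPM (30, 36 and 51 UMIs), where 7.14% of genes were. Its edgeR log2 fold change was 1.36 with an adjusted p of 0.997. The astrocyte-like nuclei lay in clusters 1 and 4, and cluster 4 held 292 of 1033 in the control but 123 of 374 and 1443 of 1575 under CNO. Within cluster 4 Adcy1 was at 10.8 against 37.7 and 14.1 CPM, short of the limit in CNO library 2, so the call is lost there. Within cluster 1 it was at 4.25 against 12.0 and 12.3 CPM, on 14, 14 and 5 UMIs. The summed neuron markers in the astrocyte-like nuclei were 856, 926 and 1002 CPM, and oligodendrocyte markers 306, 875 and 656 CPM. Adcy1 there was at 15.9, 38.3 and 28.5% of its neuron-like level. Of the free RNA genes, Gad2 was at 16.4, 26.0 and 36.3%, Snap25 at 8.78, 10.7 and 14.0%, Syt1 at 4.46, 4.88 and 5.67% and Rbfox3 at 3.18, 4.05 and 6.20%. The part of these differences in the Adcy1 values was not tested. Adcy8 in astrocyte-like nuclei was at 467.7 against 423.9 and 402.7 CPM.

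In oligodendrocyte-like nuclei 7 of 10210 genes passed edgeR's threshold, 0.0686% of those tested, and no enzyme was among them. Pde4b, their most characteristic enzyme here, was at 13962 against 11507 and 9638 CPM, lower in both CNO libraries (edgeR log2 −0.50, adjusted p 0.9999). Adcy1 was past 1.5-fold on 4, 18 and 9 UMIs, against 10.1% of genes. In OPC-like nuclei 3 of 8803 genes passed, 0.0341%, none an enzyme. Adcy2 was at 257 against 166 and 101 CPM there, past 1.5-fold in both where 8.94% of genes were (edgeR log2 −0.97, adjusted p 0.652). The summed neuron markers in OPC-like nuclei were 4317 to 6271 CPM in the second experiment against 1629 to 1711 CPM in the first. Their part in the Adcy2 values was not tested.

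Microglia-like nuclei of the CNO libraries (23 and 32) had Pde4b and Adcy8 past the limit on the higher side, against 14.8% of genes. Pde4b there was at 208.5 CPM in the control and 1343 and 607 CPM under CNO. The summed oligodendrocyte markers in the same nuclei were 328.5 CPM in the control and 1089 and 1272 CPM under CNO. Astrocyte markers were at 401, 418 and 1532 CPM and neuron markers at 1538, 2899 and 1720 CPM. Their part in the Pde4b and Adcy8 values was not tested.

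The rest of the pathway was read from lists of other cyclases, phosphodiesterases, kinases, anchors, channels, G proteins and CREB factors. In neuron-like nuclei 1 gene of these lists was past 1.5-fold under VPA, where 3.56% of all genes were. It was Prkg2, a cyclic GMP dependent kinase, at 36.04 and 21.1 CPM (−0.77), 1 of 11 tested in its list. The other lists had 0 called: 5 other adenylyl cyclases, 4 guanylyl cyclases, 12 other phosphodiesterases, 9 A-kinase anchors, 4 channels, 7 G protein alpha subunits and 6 CREB factors among them. In the CNO contrast 0 genes of any list were called in neuron-like nuclei, against 2.86% of all genes, and the smallest edgeR adjusted p in the lists was 0.9999. Over all 11318 genes in neuron-like nuclei edgeR called 0 (0%; 277 at an unadjusted p under 0.05, and 20 by DESeq2).

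Single neuron types held a few calls from these lists, named here after their values were seen. Under CNO, Sim1-rich nuclei had 1 of 5 other cyclases (Adcy10) and 2 of 13 other phosphodiesterases (Pde2a and Pde6a) past the limit on the higher side, against 3.96% of genes. Thalamus-type nuclei had Adcy10, Pde8a and Pkib higher and Pde1a and Prkar2b lower, against 9.28%. OT-like nuclei had 1 of 4 guanylyl cyclases (Gucy1a1) higher, against 6.34%. Under VPA, OT-like nuclei had 1 of 5 other cyclases (Adcy7) and 1 of 10 other phosphodiesterases (Pde9a) lower and 1 of 8 anchors (Akap1) higher, against 12.4%. They also had 1 of 4 channels lower and the 1 immediate-early gene tested higher. Thalamus-type nuclei under VPA had 1 of 12 other phosphodiesterases higher and 1 of 4 channels lower, against 13.6%. Other Slc17a6-rich nuclei had 1 of 11 genes of the kinase list lower under VPA (against 7.4%) and 1 of 4 channels higher under CNO (against 4.17%). Slc32a1-rich nuclei had 1 of 3 immediate-early genes higher under CNO, against 2.55%.

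Levels of the most abundant genes of these lists in neuron-like nuclei follow. Prkg1, another cyclic GMP dependent kinase, was at 1448, 1619, 1594, 1416 and 1131 CPM. The A-kinase anchor Akap6 was at 933, 908, 953, 831 and 787 CPM, Gnas, which encodes the stimulatory G alpha subunit, at 488, 574, 573, 507 and 477 CPM, and the soluble guanylyl cyclase subunit Gucy1a2 at 433, 401, 471, 364 and 467 CPM. The calmodulin-dependent phosphodiesterase Pde1a was at 328, 368, 377.1, 292 and 269 CPM and the cyclic AMP exchange factor Rapgef4 at 342, 351, 357, 316 and 262.5 CPM. Adcy9 was at 132, 122, 135.5, 140 and 96.7 CPM, and the CREB coactivator Crtc3 at 126, 110, 129, 126 and 123 CPM. The immediate-early gene Nr4a1 was at 8.86, 8.68, 11.0, 19.4 and 13.6 CPM.

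Across 47 units (neuron sub-clusters and glia classes) the genes most like each enzyme were found by Pearson correlation of log2(CPM + 1) among 14329 genes. These correlations describe units that share libraries and depth. For Adcy8 the closest was Gm21798 (r = 0.99), for Pde10a Rab3c and Ptprn (both 0.90), and for Adcy5 Tmem178b (0.90) and Ank3 (0.85). The values for Adcy1 were 0.81 with Gm16054 and 0.80 with Olfr239, for Pde4d 0.81 with Plekha6 and with Gm19461, and for Adcy2 0.76 with Ift81 and 0.75 with Igdcc4. Weaker matches were Gm48249 (0.66) and Tspan2 (0.65) for Pde4b, Tmem200a and Fstl5 (both 0.66) for Pde11a, Dpyd (0.59) and Ccdc181 (0.55) for Pde1c, and Mn1 (0.50) and Gm30524 (0.48) for Pde3a. The second for Adcy8 was A830082K12Rik at 0.72. Among the enzymes themselves Pde4d and Pde10a were the most alike (0.74) and Adcy2 and Pde3a the least (−0.33).

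Gm21798 lies on the strand opposite Adcy8 (GRCm38 chr15:64817694-64937996, plus strand; Adcy8 is at chr15:64697084-64922296, minus strand), and their spans overlap by 104.6 kb. Whether counting used strand is not given in the sources used here, so reads of the overlap cannot be told apart. Gm21798 had 0.348, 0.479, 0.276, 0.232 and 0.641 UMIs per Adcy8 UMI in neuron-like nuclei. The Adcy8 values above carry that uncertainty.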

How the data were processed

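The libraries were single-nucleus RNA counts: the deposited matrices hold UMI counts per gene and nucleus, made with Cell Ranger 7.0.1 against mm10, per the submitters' processing notes. Whether intronic reads were counted and whether counting used strand is not given in the sources used here. The transgene row for Cre was left out of totals.

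A nucleus needed 1000 UMIs or more, with no more than 5% of them mitochondrial. The highest Scrublet scores were removed at 0.8% per 1000 nuclei (149 to 943 a library), since automatic calls marked only 7 to 287. Clusters (scanpy 1.11.5, leidenalg 0.10.2, 2000 variable genes, 30 components, 20 neighbours, resolution 1, neurons again at 2) numbered 38, with 63 neuron sub-clusters, named from fixed markers with at least 3 detected. UMIs were summed per class and library and expressed as CPM with exact Poisson intervals, and ratios have exact conditional binomial intervals. These 95% intervals cover counting error only. Genes with a mean of at least 5 CPM and 30 UMIs were tested, and a call is past 1.5-fold in each treated library. Shares were compared after thinning to 2000 UMIs. In the CNO contrast edgeR 4.0.16 (quasi-likelihood, TMM, Benjamini-Hochberg, threshold 0.05) was fitted in R 4.3.3, with DESeq2 1.42.0 as an alternative, and the ratios and the fits were tested on simulated data.

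The 10 enzymes and all lists were chosen with earlier results of these data known. Named were all 10 enzymes, the pathway genes called in neuron-like nuclei, the most abundant gene of each pathway list (1 is not reported here), and the 2 genes most correlated with each enzyme among genes of at least 10 CPM. Alternatives varied the UMI minimum, doublet removal, scaling, pseudocount, weighting of sub-clusters, gene filter and fold limit, and left out a CNO library. Promoter windows are from RefSeq (GRCm38.p6), and gene positions are from GENCODE on GRCm38.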

Additional observations from a re-analysis of the deposited data

Results flagged for a closer look

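Some ratios of 1 enzyme under VPA lay past 1.5-fold in opposite directions in different classes. The difference between the classes was not tested, and each class has 1 library per arm. Pde10a was lower in other Slc17a6-rich neurons (log2 −0.7736) and higher in oligodendrocyte-like nuclei (0.6104) and endothelial-like nuclei (1.809). The endothelial value rests on 16 and 81 UMIs and the oligodendrocyte value on 51 and 79 UMIs. Summed neuron markers went the same way, from 4818 to 7072 CPM in endothelial-like nuclei and from 549.7 to 926.8 CPM in oligodendrocyte-like nuclei, where Pde10a also lay within the span of the free RNA genes. Pde1c was higher in other Slc17a6-rich neurons (0.5883) and lower in committed precursors of oligodendrocytes (−1.441), the latter on 27 and 10 UMIs. In those precursors neuron markers were at 756 CPM in saline and 1853 CPM in VPA and oligodendrocyte markers at 6961 and 5302 CPM. The part of the marker differences in these ratios was not tested.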

How the results depend on the processing

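Depth and replication limit these values: the saline, VPA and hM3 control groups have 1 library each, and the intervals of their ratios cover counting error only. Over the alternatives run, 123 VPA log2 ratios of the enzymes stayed within the counting interval and 27 moved out of it. In the CNO contrast 168 moved by less than the SD of the CNO libraries and 12 by more. The gene filter and the fold limit do not enter a log2 ratio. Ratios under those alternatives could not move, and both counts of unmoved ratios include them. The causes of the moves were not tested. The mean levels by class that were recomputed moved by less than 1 SD over libraries with 2000 UMIs as the minimum and with doublets kept.

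For VPA, 394 genes were called in neuron-like nuclei, and 71 with a pseudocount of 10 CPM, 229 with equal weight per sub-cluster, 4761 with no gene filter and 54 at 2-fold. The higher share of calls was 63.2% in the reported fit, 46.4% with TMM factors, 40.8% with the pseudocount, 76.9% with equal weight and 29.6% at 2-fold. The enzymes called numbered 2 in place of 1 with doublets kept and with TMM factors (Pde3a was added), and 0 with equal weight and at 2-fold.

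For CNO, 324 genes were called, and 61 with the pseudocount, 2231 with no filter, 69 at 2-fold and 643 to 1718 with 1 CNO library left out. The enzymes called numbered 0 with equal weight and at 2-fold, and 1 to 2 with 1 CNO library left out. In alternatives chosen after seeing the data, the call of Pde1c was lost without its 4 highest sub-clusters and held with both-transmitter sub-clusters kept, as did that of Adcy8 under VPA. Pde1c was past 1.5-fold lower in 50% of 14 sub-clusters, and in 100% of the 1 that had 50 nuclei in each library, the low-Pde1c sub-cluster 1 (56, 17 and 2 UMIs).

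By edgeR the called genes were 0 in neuron-like nuclei (20 by DESeq2, 54 with no filter), 0 in astrocyte-like nuclei (8 with no filter), 7 in oligodendrocyte-like nuclei (1 by DESeq2, 14 with no filter) and 3 in OPC-like nuclei (0 by DESeq2, 19 with no filter). No paired analysis was possible because the groups compared share fewer than 2 replicate numbers.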

Other observations

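The largest group of nuclei set aside for carrying both transmitter genes held Pde11a at 22.9, 49.9, 32.9, 57.5 and 31.7 CPM in the saline, VPA, hM3 control, CNO 1 and CNO 2 libraries, against 21.7, 17.2, 34.8, 24.4 and 13.9 CPM in neuron-like nuclei. It entered only the alternatives that kept both-transmitter sub-clusters. In astrocyte-like nuclei the antisense neighbour of Adcy8, Gm21798, had 0.342, 0.333, 0.256, 0.182 and 0.512 UMIs per Adcy8 UMI. CNO library 2 had the highest ratio in both neuron-like and astrocyte-like nuclei.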
